A study of Mus musculus with 11 samples.

Results

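The cells described here are dendritic-type cells without C1q, found in 2 droplet single-cell libraries of whole mesenchyme from mouse small intestine. A cell counted as a member when it had 20 or more unique molecular identifiers (UMIs, each standing for 1 captured transcript) of H2-Ab1, the MHC class II beta chain, at most 1 UMI over C1qa, C1qb and C1qc, and 2 or more UMIs over Itgax (CD11c), Flt3 and Cd209a. It also had no UMI of Cd79a or of the Cd3 genes, 500 or more detected genes and under 10% mitochondrial UMIs. This gave 544 members among 12266 kept cells, 257 of 6226 in library 1 and 287 of 6040 in library 2. The share was 4.13% (exact 95% binomial interval 3.65% to 4.65%) in library 1 and 4.75% (4.23% to 5.32%) in library 2; these intervals cover counting error only.

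Dendritic cells take up antigen in tissue and present its peptides on MHC class II molecules to CD4 T cells. Conventional dendritic cells fall into a type 1 lineage, which depends on the transcription factors IRF8 and BATF3, carries XCR1 and CLEC9A and passes antigen to CD8 T cells, and a type 2 lineage, which depends largely on IRF4 and carries SIRPA and, in the mouse gut, often CD11b. In the intestinal wall both lineages mature, express the chemokine receptor CCR7 and leave for the lymph node, while macrophages, which carry MHC class II and C1q, stay in place. The C-type lectin gene Cd209a, a mouse relative of human DC-SIGN, is transcribed by monocyte-derived and type 2 cells.

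The study compared mesenchymal cell types of the mouse small intestine as sources of the BMP signalling gradient. Its other libraries are 1 single-cell library of sorted PDGFRA-H2BEGFP reporter cells and 8 bulk libraries, a pair each of telocytes and PDGFRAlo cells from PDGFRAH2BEGFP transgenic mice and of blood and lymphatic endothelium from C57BL/6 mice. The labels give no strain, treatment or age for the whole-mesenchyme libraries and repeat for them the sorting text of the reporter line, so all members come from tissue of a single description. The labels do not say that the 2 libraries are separate animals. The spread behind each p-value is therefore that between 2 libraries, over all classes in the fit and shared across genes, and could be technical.

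Members were divided by Cd209a. At least 1 Cd209a UMI was present in 294 members (139 in library 1 and 155 in library 2), called Cd209a-positive, and none in 250 (118 and 132), called Cd209a-zero. For scale, members were set beside C1q-high cells (H2-Ab1 at 20 or more and C1q genes at 10 or more UMIs, 149 cells) and B cells (Cd79a at 2 or more and Ms4a1 at 1 or more UMIs, 147 cells, with at most 1 UMI of the C1q genes and of the dendritic sum). UMI counts were summed per library and class. Levels are CPM, a gene's UMIs scaled to a common total over each sum with edgeR's TMM factors, and are given for library 1 and then library 2.

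Members were deep cells, and depth differed between classes. The median was 13729 UMIs per cell in members of library 1 and 14500 in library 2, against 5280.5 and 5273 over all kept cells. Cd209a-positive members had medians of 11842 and 11490 UMIs, against 16934 and 17168.5 in Cd209a-zero members, 4619 and 4974.5 in C1q-high cells and 3088 and 3422 in B cells. Scrublet predicted 12 doublets among the 544 members (4 and 8). The libraries shared 9 cell barcodes, none of them a member.

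The genes of the rule are a description, with no test. H2-Ab1 had a median of 135 UMIs per member in library 1 (20 to 428) and 131 in library 2 (20 to 507). Its level was 9858 and 9428 CPM in Cd209a-positive cells, against 11072 and 9972 CPM in Cd209a-zero cells. Cd209a itself was at 393 and 303 CPM in Cd209a-positive cells, against 0 and 0 CPM in Cd209a-zero cells. Flt3, the receptor for the growth factor that sustains dendritic cells, was at 124 and 124 CPM in Cd209a-positive cells, against 134 and 123 CPM in Cd209a-zero cells, and Itgax at 266 and 261 CPM in Cd209a-positive cells, against 195 and 166 CPM in Cd209a-zero cells. Among Cd209a-positive members, 22 and 35 cells had a single Cd209a UMI, 21 and 35 had 2, 83 and 76 had 3 to 9, and 13 and 9 had 10 or more. Because Cd209a counts toward the rule, 14 of 139 and 28 of 155 positive members had under 2 UMIs of Itgax and Flt3 together and entered through it.

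Cells near the limits of the rule were few. Inside the H2-Ab1 limit, 8 and 13 members had 20 to 24 UMIs, with 6 and 7 of them Cd209a-positive; just outside, 4 and 9 cells had 15 to 19 UMIs, with 2 and 6 of them carrying Cd209a. A C1q sum of 1 was seen in 16 and 15 members, and a sum of 2 in 1 and 3 cells outside. A dendritic sum of 2 was seen in 25 and 30 members, and a sum of 1 in 19 and 26 cells outside.

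Cd209a was used by the rule, so its share is a description. A UMI of Cd209a was found in 4 of 1454 and 2 of 1315 fibroblasts (10 or more UMIs of Col1a2 and Dcn together, medians of 7462 and 7350 UMIs), or 0.275% and 0.152%, against 54.1% and 54.0% of members. When each cell was thinned to 5000 UMIs, the shares were 43.0% and 40.9% of members and 0.159% and 0.178% of fibroblasts. The same thinning left a Cd209a UMI in 77.9% and 74.3% of the Cd209a-positive cells, so a cell's class depends in part on its depth.

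A divide among members followed the type 1 genes. Cd209a lies at chromosome 8, 3743397 to 3748984, reverse strand (GRCm38, GENCODE M21), Xcr1 at chromosome 9, 123852315 to 123862029, reverse strand, and Clec9a, a receptor for dead cells, at chromosome 6, 129408862 to 129424763, forward strand. The 250 bases before each annotated start, from RefSeq on GRCm38.p6, are shown because these genes mark the opposite ends of the split. The capitals mark matches on either strand to TTTC, any 4 bases and then TGA, a composite bound by AP-1 factors of the BATF family together with IRF4 or IRF8.
Cd209a chr8:3748985-3749234, reverse strand: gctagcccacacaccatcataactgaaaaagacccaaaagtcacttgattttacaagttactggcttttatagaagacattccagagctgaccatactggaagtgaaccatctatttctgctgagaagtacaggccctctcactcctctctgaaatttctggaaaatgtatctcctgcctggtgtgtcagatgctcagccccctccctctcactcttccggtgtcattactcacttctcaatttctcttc
Xcr1 chr9:123862030-123862279, reverse strand: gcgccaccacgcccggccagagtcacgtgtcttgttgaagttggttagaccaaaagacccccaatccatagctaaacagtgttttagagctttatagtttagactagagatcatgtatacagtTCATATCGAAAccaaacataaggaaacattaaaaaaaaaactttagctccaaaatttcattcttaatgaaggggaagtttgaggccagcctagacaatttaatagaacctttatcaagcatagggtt
Clec9a chr6:129408612-129408861, forward strand: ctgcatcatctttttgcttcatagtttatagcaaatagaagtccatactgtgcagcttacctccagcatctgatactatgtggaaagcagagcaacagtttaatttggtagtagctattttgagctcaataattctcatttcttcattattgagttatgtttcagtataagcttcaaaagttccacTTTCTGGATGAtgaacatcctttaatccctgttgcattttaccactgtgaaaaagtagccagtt

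Xcr1 holds the motif with its first base 127 bases before the start and Clec9a 64 bases before it, and the Cd209a window holds none. Over all 32851 RefSeq promoter windows of this length, 3.82% hold it. Among genes with a window, it is held by 3 of 10 on the type 1 list (Clec9a, Gcsam and Xcr1) and by 0 of 7 on the type 2 list. A list gene was counted if any of its windows matched, whereas the 3.82% is per window. A match is a string of letters, and binding there was not measured.

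Cd209a and the type 1 receptors were found mostly in different cells. In all, 3 of 139 and 9 of 155 Cd209a-positive members had 2 or more UMIs of Xcr1 and Clec9a together (2.16% and 5.81%), against 54 of 118 and 68 of 132 Cd209a-zero members (45.8% and 51.5%). The order was the same in both libraries; binomial intervals for such shares cover counting error over cells of 1 library only. At 5000 UMIs per cell, 2.21% and 4.17% of Cd209a-positive cells had an Xcr1 UMI, against 30.4% and 33.1% of Cd209a-zero cells. Unthinned, the Xcr1 shares were 3.60% and 5.81% of Cd209a-positive cells, against 42.4% and 47.7% of Cd209a-zero cells. In fibroblasts they were 0 of 1454, which allows up to 0.206%, and 0.152%.

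**Figure D1:**
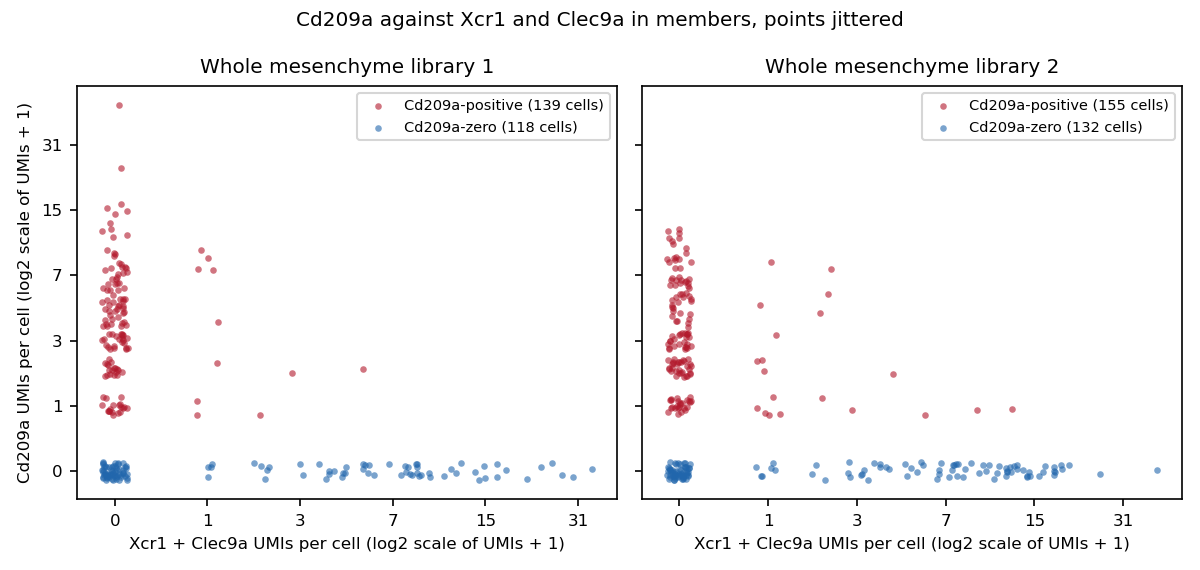
UMIs per cell of Cd209a (vertical) against Xcr1 and Clec9a together (horizontal), both on a log2 scale of UMIs plus 1 and jittered, 1 point per member, in each whole-mesenchyme library. Cd209a-positive cells lie along the vertical axis and the type 1 receptors extend along the Cd209a-zero row; 3 and 9 positive cells have 2 or more receptor UMIs.

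Cells were also counted by Ccr7 (3 or more UMIs), by Siglech (2 or more), a receptor of plasmacytoid dendritic cells, and by neither, after the Xcr1 and Clec9a cells were set aside. Ccr7 cells made up 29.5% and 25.2% of Cd209a-positive members, against 35.6% and 31.1% of Cd209a-zero members. These are shares of whole classes, with the set-aside cells still in the total. Among the Cd209a-zero cells left, 42 and 41 were Ccr7 cells and 19 and 19 had neither Ccr7 nor Siglech. Among the Cd209a-positive cells left, the counts were 41 and 39, against 89 and 100. With none set aside, Ccr7 cells were 42.4% and 37.1% of Cd209a-zero members and 29.5% and 25.2% of Cd209a-positive members. Siglech cells were 6 of 139 and 7 of 155 Cd209a-positive members, against 3 of 118 and 4 of 132 Cd209a-zero members. Cells with none of these patterns were 64.0% and 64.5% of Cd209a-positive members, against 16.1% and 14.4% of Cd209a-zero members.

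**Figure D2:**
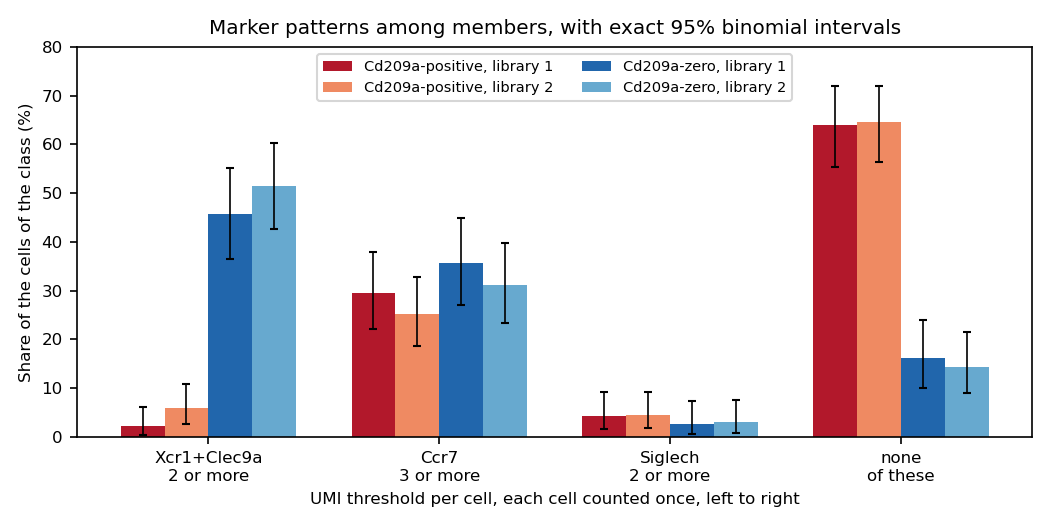
Share of each class, in percent, that met a UMI threshold, each cell counted once from left to right, with exact 95% binomial intervals; bars show Cd209a-positive and then Cd209a-zero members in libraries 1 and 2. Xcr1 and Clec9a cells reach 45.8% and 51.5% of the Cd209a-zero class, and cells with none of the patterns 64.0% and 64.5% of the Cd209a-positive class.

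Across the transcriptome, 742 of 8716 tested genes were higher in Cd209a-positive than in Cd209a-zero members (8.51%) and 557 were lower (6.39%), 14.9% in either direction, at an edgeR adjusted p under 0.05; rule genes were left out of the count. Thinned to 2000 UMIs per cell, the comparison called 323 of 3925 genes, and without members with 2 or more Xcr1 and Clec9a UMIs it called 491. The median log2 fold over all tested genes was -0.004. Library 1 and library 2 differed in 5 of 8724 genes at the same threshold and in 363 at an unadjusted p under 0.05.

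Many of the differences named in the next paragraphs were not called once members with 2 or more Xcr1 and Clec9a UMIs were left out. Of 78 named calls that could be tested without them, 40 no longer passed in the same direction. The count was 9 of 81 without the Ccr7 cells, 2 of 83 without the Siglech cells, 1 of 84 without predicted doublets, 19 of 74 with thinned cells and 22 of 84 with DESeq2. Calls lost with DESeq2 included Cyp26b1, Clec12a, Batf3, Wdfy4, Lyz2, Aldh1a2, H2-DMb2, Nlrp3, Klk1, Ly6c2 and Plac8. Calls lost with thinned cells included Sirpa, Cd274, Cd86, Tcf4, Batf3 and Wdfy4. The type 2 genes Itgam, Irf4, Mgl2, Cd300a and Klf4 passed without the Xcr1 and Clec9a cells, and Plet1, Sirpa and Clec12a did not. That removal left a Cd209a-zero class mostly of Ccr7 cells, with 671959 and 644705 UMIs, against 238845 and 258297 in cells with no pattern. In the Cd209a-positive class Ccr7 cells gave 570693 and 514489 UMIs, against 1106176 and 1222797 in cells with no pattern. Folds in this setting therefore compare classes of unlike make-up.

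Type 1 genes were lower in Cd209a-positive members as a group. Of 11 tested genes of the type 1 list, 10 were lower, none was higher, and the median log2 fold was -3.26. Xcr1, the receptor for the chemokine XCL1, was at 2.87 and 13.1 CPM in Cd209a-positive cells, against 173 and 177 CPM in Cd209a-zero cells (log2 fold -4.42 ± 0.28 SE, edgeR adjusted p = 1.54e-07). Clec9a was at 7.46 and 14.7 CPM in Cd209a-positive cells, against 100.3 and 114 CPM in Cd209a-zero cells (log2 fold -3.26 ± 0.25 SE, edgeR adjusted p = 4.75e-07). Both libraries of a class lay on the same side for Xcr1 and Clec9a. The choice of named genes required this only of those named by the size of the fold.

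The adhesion molecule gene Cadm1 was at 3.44 and 11.6 CPM in Cd209a-positive cells, against 113 and 125 CPM in Cd209a-zero cells (log2 fold -3.94 ± 0.28 SE, edgeR adjusted p = 4.22e-07). Tlr3, a receptor for double-stranded RNA, was at 0 and 1.05 CPM in Cd209a-positive cells, against 15.9 and 25.5 CPM in Cd209a-zero cells, from 2 UMIs over both positive sums. Irf8 was at 59.7 and 102 CPM in Cd209a-positive cells, against 401 and 499 CPM in Cd209a-zero cells (log2 fold -2.48 ± 0.19 SE, edgeR adjusted p = 5.12e-07), and its partner Batf3 at 59.7 and 77.3 CPM in Cd209a-positive cells, against 98.8 and 121 CPM in Cd209a-zero cells (log2 fold -0.68 ± 0.17 SE, edgeR adjusted p = 0.0134). Naaa, Ifi205, Snx22 and Wdfy4 were also lower, with Wdfy4, which is needed for cross-presentation, changing least (log2 fold -0.59 ± 0.12 SE, edgeR adjusted p = 0.00396). Naaa had a log2 fold of 0.40 without the Xcr1 and Clec9a cells (edgeR adjusted p = 0.367), and Cadm1, Wdfy4 and Batf3 did not pass (log2 folds of -2.21, -0.02 and -0.51). Itgae, which encodes CD103 and is shared by gut dendritic cells of both lineages, did not pass the test, at 226 and 221 CPM in Cd209a-positive cells, against 279 and 233 CPM in Cd209a-zero cells (edgeR adjusted p = 0.51).

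Type 2 genes were higher in Cd209a-positive members. Of 12 tested genes of the type 2 list, 10 were higher and 1 lower, with a median log2 fold of 1.44. Itgam, the CD11b chain, was at 102 and 84.6 CPM in Cd209a-positive cells, against 8.70 and 10.4 CPM in Cd209a-zero cells (log2 fold 3.26 ± 0.25 SE, edgeR adjusted p = 4.84e-07). Irf4 was at 101 and 90.4 CPM in Cd209a-positive cells, against 21.0 and 19.9 CPM in Cd209a-zero cells (log2 fold 2.22 ± 0.19 SE, edgeR adjusted p = 1.08e-06). The galactose-binding lectin gene Mgl2 was at 138 and 95.7 CPM in Cd209a-positive cells, against 16.4 and 22.0 CPM in Cd209a-zero cells (log2 fold 2.56 ± 0.22 SE, edgeR adjusted p = 1.93e-06).

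Plet1, which the rule did not use, was at 762 and 814 CPM in Cd209a-positive cells, against 361 and 264 CPM in Cd209a-zero cells (log2 fold 1.34 ± 0.17 SE, edgeR adjusted p = 5.4e-05). Its log2 fold was 0.36 without the Xcr1 and Clec9a cells (edgeR adjusted p = 0.216). A Plet1 UMI was present in 74.8% and 70.3% of Cd209a-positive cells, against 44.1% and 37.1% of Cd209a-zero cells and 0.894% and 0.608% of fibroblasts. At 5000 UMIs per cell the shares were 65.4% and 65.3% of Cd209a-positive cells, against 36.5% and 31.5% of Cd209a-zero cells. Cd300a, an inhibitory receptor gene, was at 346 and 369 CPM in Cd209a-positive cells, against 127 and 118 CPM in Cd209a-zero cells, and the transcription factor gene Klf4 at 415 and 364 CPM in Cd209a-positive cells, against 195 and 192 CPM in Cd209a-zero cells; their log2 folds were 1.55 and 1.00 (edgeR adjusted p = 1.56e-06 and 8.79e-05).

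Sirpa, a receptor for CD47 that defines type 2 cells, changed less, at 86.6 and 75.2 CPM in Cd209a-positive cells, against 52.2 and 44.9 CPM in Cd209a-zero cells (log2 fold 0.74 ± 0.18 SE, edgeR adjusted p = 0.00956). Without the Xcr1 and Clec9a cells its log2 fold was -0.26 (edgeR adjusted p = 0.544). Clec12a was the member of the list that fell, at 24.1 and 28.9 CPM in Cd209a-positive cells, against 61.9 and 54.9 CPM in Cd209a-zero cells (log2 fold -1.13 ± 0.27 SE, edgeR adjusted p = 0.00834), a call lost without the Xcr1 and Clec9a cells (log2 fold -0.31). Both Itgae and Itgam were detected in 48.2% and 36.8% of Cd209a-positive cells, against 11.0% and 8.33% of Cd209a-zero cells; this is the CD103 and CD11b pair of small-intestinal type 2 cells.

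**Figure D3:**
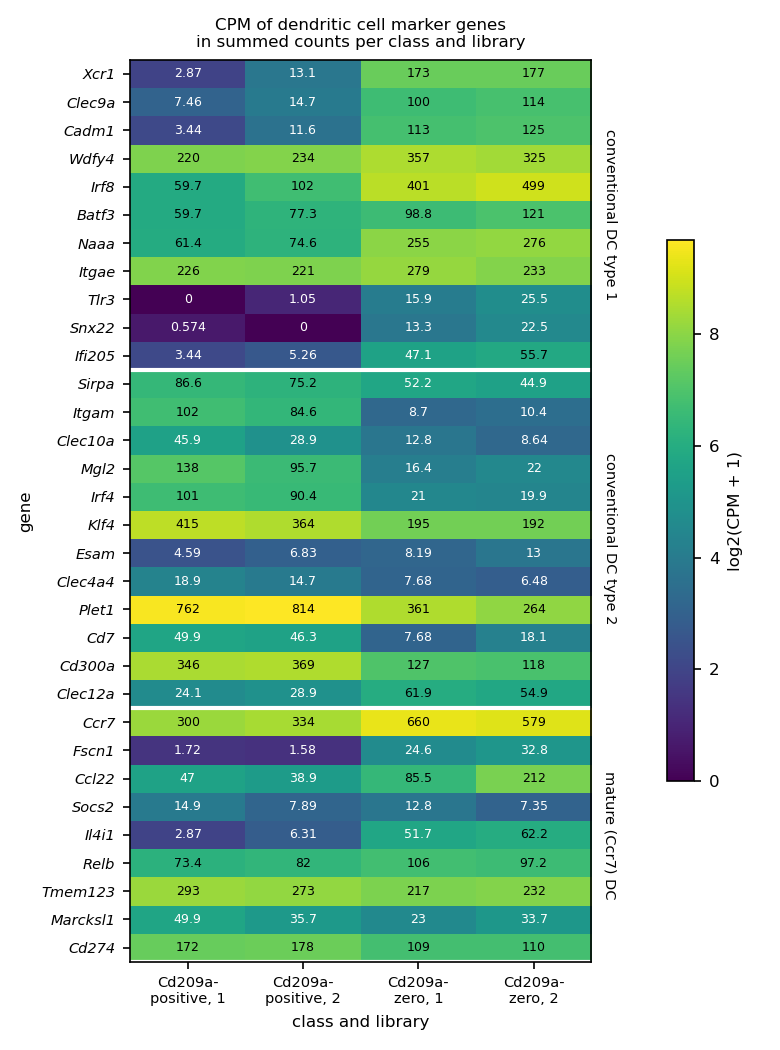
CPM (printed in each box, colour on a log2 scale of CPM plus 1) of the tested type 1, type 2 and mature dendritic cell genes in Cd209a-positive and then Cd209a-zero members of libraries 1 and 2. Xcr1 stands at 173 and 177 CPM in the Cd209a-zero columns and Itgam at 102 and 84.6 CPM in the Cd209a-positive columns.

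Rises are named by fold from genes at 50 CPM or above in the higher class whose libraries did not overlap. Cd209b, which lies near Cd209a at chromosome 8, 3917655 to 3926844, reverse strand, was at 63.1 and 43.1 CPM in Cd209a-positive cells, against 4.61 and 0 CPM in Cd209a-zero cells (log2 fold 4.57 ± 0.50 SE, edgeR adjusted p = 2.11e-05), a call lost with DESeq2 of 14 alternatives, and a log2 fold of 3.37 without library 2; reads that the 2 lectin genes share could not be apportioned here. Cpm, a membrane carboxypeptidase, was at 70.0 and 63.1 CPM in Cd209a-positive cells, against 6.14 and 5.62 CPM in Cd209a-zero cells (log2 fold 3.48 ± 0.26 SE, edgeR adjusted p = 4.22e-07). Thbs1, which encodes thrombospondin 1, was at 262 and 335 CPM in Cd209a-positive cells, against 51.2 and 44.1 CPM in Cd209a-zero cells (log2 fold 2.65 ± 0.16 SE, edgeR adjusted p = 7.29e-08). Il1r2, the decoy receptor for interleukin 1, was at 3139 and 2542 CPM in Cd209a-positive cells, against 1002 and 659 CPM in Cd209a-zero cells (log2 fold 1.79 ± 0.12 SE, edgeR adjusted p = 1.19e-07).

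The macrophage gene Adgre1 (F4/80) rose as well, at 69.4 and 53.1 CPM in Cd209a-positive cells, against 8.19 and 11.7 CPM in Cd209a-zero cells (log2 fold 2.58 ± 0.24 SE, edgeR adjusted p = 4.97e-06). Prdm1, Emp1, Serpinb1a and Tnip3 rose with log2 folds of 2.97, 2.63, 2.47 and 2.43. Serpinb1a varied widely between the Cd209a-zero libraries, which stood at 32.7 and 5.62 CPM. Near-empty barcodes held it at 92.0 and 81.7 CPM of their own UMIs, which is not the amount added to a member. Large falls outside the dendritic lists included Cyp26b1, which degrades retinoic acid, at 1.72 and 11.0 CPM in Cd209a-positive cells, against 116 and 143 CPM in Cd209a-zero cells (log2 fold -4.30 ± 0.36 SE, edgeR adjusted p = 1.07e-06), and the tetraspanin gene Cd81, at 9.18 and 23.1 CPM in Cd209a-positive cells, against 235 and 229 CPM in Cd209a-zero cells (log2 fold -3.81 ± 0.25 SE, edgeR adjusted p = 1.33e-07). Rab7b and Ppt1, genes of late endosomes and lysosomes, had log2 folds of -3.68 and -3.26. The calls of Cd81, Rab7b and Ppt1 were lost without the Xcr1 and Clec9a cells (edgeR adjusted p = 0.459, 0.151 and 0.371). Cyp26b1 did not pass with DESeq2 (DESeq2 adjusted p = 0.0930).

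The maturation genes were split. Of 9 tested genes of the mature list, 4 were lower in Cd209a-positive members, 1 was higher and the median log2 fold was -0.39. Ccr7 was at 300.0 and 334 CPM in Cd209a-positive cells, against 659.6 and 579 CPM in Cd209a-zero cells (log2 fold -0.97 ± 0.12 SE, edgeR adjusted p = 6.29e-05), Fscn1, which bundles actin, at 1.72 and 1.58 CPM in Cd209a-positive cells, against 24.6 and 32.8 CPM in Cd209a-zero cells (log2 fold -4.05 ± 0.47 SE, edgeR adjusted p = 3.73e-05), and Il4i1, an amino acid oxidase gene, at 2.87 and 6.31 CPM in Cd209a-positive cells, against 51.7 and 62.2 CPM in Cd209a-zero cells (log2 fold -3.60 ± 0.29 SE, edgeR adjusted p = 8.15e-07). Cd274 (PD-L1) was higher, at 172 and 178 CPM in Cd209a-positive cells, against 109 and 110.2 CPM in Cd209a-zero cells (log2 fold 0.67 ± 0.13 SE, edgeR adjusted p = 0.00265), at a log2 fold of 0.24 without the Xcr1 and Clec9a cells (edgeR adjusted p = 0.469). Relb and Tmem123 did not pass the test.

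The chemokine genes Ccl22 and Ccl17, ligands of CCR4, depended on which cells were counted. Ccl22 was at 47.0 and 38.9 CPM in Cd209a-positive cells, against 85.5 and 212 CPM in Cd209a-zero cells (log2 fold -1.72 ± 0.28 SE, edgeR adjusted p = 0.000604), and the Cd209a-zero libraries differed widely. Ccl17 was at 14.9 and 30.0 CPM in Cd209a-positive cells, against 30.7 and 98.5 CPM in Cd209a-zero cells (log2 fold -1.48 ± 0.22 SE, edgeR adjusted p = 0.000344), with an adjusted p of 0.0769 by edgeR without the Xcr1 and Clec9a cells and 0.115 by DESeq2. Without members with 3 or more Ccr7 UMIs both were higher in the Cd209a-positive cells, with log2 folds of 2.39 for Ccl22 and 2.99 for Ccl17 (edgeR adjusted p = 0.00119 and 0.000958). Without those members Ccr7, the gene they were chosen by, had a log2 fold of 0.78 (edgeR adjusted p = 0.0920).

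Over all 18 tested chemokine ligands, 5 were higher in Cd209a-positive members and 3, Ccl22 and Ccl17 among them, were lower. Cxcl2, which draws neutrophils, was at 901 and 1073 CPM in Cd209a-positive cells, against 373 and 345 CPM in Cd209a-zero cells (log2 fold 1.47 ± 0.14 SE, edgeR adjusted p = 3.38e-06). Of 11 chemokine receptors 3 were higher, and 2, Xcr1 and Ccr7, were lower. Ccr1, a receptor for several inflammatory CC chemokines, was at 457 and 491 CPM in Cd209a-positive cells, against 185 and 156 CPM in Cd209a-zero cells (log2 fold 1.48 ± 0.12 SE, edgeR adjusted p = 1.01e-06), a call lost without the Xcr1 and Clec9a cells (log2 fold 0.38).

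The cytokine genes went both ways, with 4 of 14 higher and 4 lower, at a median log2 fold of -0.21, or 0.24 with 2 genes that had no count in a class set at 3 counts. Il12b, the p40 subunit shared by interleukins 12 and 23, was at 1.15 and 2.63 CPM in Cd209a-positive cells, against 32.2 and 45.8 CPM in Cd209a-zero cells (log2 fold -4.30 ± 0.41 SE, edgeR adjusted p = 6.3e-06), and Il23a, the p19 subunit, at 1.72 and 13.1 CPM in Cd209a-positive cells, against 82.4 and 57.5 CPM in Cd209a-zero cells (log2 fold -3.17 ± 0.40 SE, edgeR adjusted p = 6.27e-05). Il22ra2, which encodes a soluble decoy of interleukin 22 made by gut dendritic cells, was at 92.3 and 114 CPM in Cd209a-positive cells, against 563 and 359.5 CPM in Cd209a-zero cells (log2 fold -2.16 ± 0.24 SE, edgeR adjusted p = 1.46e-05). All 3 were lower in Cd209a-positive members in both libraries. Ebi3 and Il1a were higher, with log2 folds of 1.72 and 1.91 (edgeR adjusted p = 0.00021 and 0.00279), and Il1a did not pass without the Xcr1 and Clec9a cells (edgeR adjusted p = 0.0543).

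The antigen presentation genes are given by class of MHC. Of 13 tested genes of the class II list, 4 were higher in Cd209a-positive members and none was lower, at a median log2 fold of 0.13. The chains themselves did not pass the test: H2-Aa was at 8236 and 7948 CPM in Cd209a-positive cells, against 7878 and 6987 CPM in Cd209a-zero cells, H2-Eb1 at 7805 and 7757 CPM in Cd209a-positive cells, against 8318 and 7520.4 CPM in Cd209a-zero cells, and the invariant chain Cd74 at 21238 and 21857 CPM in Cd209a-positive cells, against 20289.5 and 19196 CPM in Cd209a-zero cells. H2-Oa, which restrains peptide loading, was higher at 233 and 220.3 CPM in Cd209a-positive cells, against 123 and 119.7 CPM in Cd209a-zero cells (log2 fold 0.90 ± 0.14 SE, edgeR adjusted p = 0.000413). The proteases Lgmn and Ctss were higher by log2 folds of 1.48 and 0.68 (edgeR adjusted p = 9.13e-06 and 0.000554), Ctss not without the Xcr1 and Clec9a cells (log2 fold 0.18), and H2-DMb2 by 0.46 (edgeR adjusted p = 0.0245). With thinned cells the calls of H2-Oa, Ctss and H2-DMb2 were lost. These genes then had log2 folds of 0.46, 0.34 and 0.14 (edgeR adjusted p = 0.210, 0.182 and 0.780).

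H2-DMb1 and H2-DMb2 encode beta chains of the same loading factor and differed between kinds of member. H2-DMb1 was at 520.2 and 508 CPM in Cd209a-positive cells, against 640.1 and 641 CPM in Cd209a-zero cells (edgeR adjusted p = 0.0869). Without the Xcr1 and Clec9a cells H2-DMb1 was higher in Cd209a-positive members (log2 fold 0.84, edgeR adjusted p = 0.000872), and without the Ccr7 cells it was lower (log2 fold -0.58, edgeR adjusted p = 0.00294). Without the Xcr1 and Clec9a cells H2-DMb2 had a log2 fold of -0.29 (edgeR adjusted p = 0.291).

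The promoters of H2-Aa and H2-Eb1 are shown because the members share high expression of these chains. The 250 bases before the start carry CCAAT, the Y box letters, on either strand, in capitals.
H2-Aa chr17:34287824-34288073, reverse strand: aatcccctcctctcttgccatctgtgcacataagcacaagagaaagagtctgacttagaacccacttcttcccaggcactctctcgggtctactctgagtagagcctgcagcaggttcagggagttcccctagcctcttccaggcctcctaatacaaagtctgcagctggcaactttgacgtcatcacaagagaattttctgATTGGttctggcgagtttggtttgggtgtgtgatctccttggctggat
H2-Eb1 chr17:34305617-34305866, forward strand: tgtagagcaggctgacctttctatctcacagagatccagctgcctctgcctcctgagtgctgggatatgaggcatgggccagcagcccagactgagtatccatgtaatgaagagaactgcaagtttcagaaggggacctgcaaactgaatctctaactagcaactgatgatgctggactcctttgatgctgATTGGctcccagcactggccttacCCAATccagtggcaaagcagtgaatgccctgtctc

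The match begins 48 bases before the start of H2-Aa, and 59 and 35 bases before that of H2-Eb1. Of the 11 class II list genes with a window, 9 hold the letters in at least 1 window. Of all 32851 windows, each counted singly, 33.8% hold them, so these shares are in unlike units.

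In the class I and cross-presentation list, 5 of 13 genes were lower in Cd209a-positive members and none was higher, at a median log2 fold of -0.37. Psmb9, an immunoproteasome subunit, was at 211 and 222 CPM in Cd209a-positive cells, against 466 and 450.3 CPM in Cd209a-zero cells (log2 fold -1.08 ± 0.12 SE, edgeR adjusted p = 1.38e-05), and the peptide transporter gene Tap1 at 71.1 and 88.3 CPM in Cd209a-positive cells, against 158 and 166 CPM in Cd209a-zero cells (log2 fold -1.02 ± 0.14 SE, edgeR adjusted p = 0.000117). Neither Psmb9 nor Tap1 passed without the Xcr1 and Clec9a cells (log2 folds of -0.23 and -0.18). Psmb8, Psme1 and Tap2 were the others that fell. B2m, H2-K1 and H2-D1, the class I chains, had log2 folds of 0.02, 0.13 and -0.03 and did not pass the test.

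Of 17 tested C-type lectin genes, 10 were higher in Cd209a-positive members and 3 lower, at a median log2 fold of 1.79, or 1.23 with 2 genes that had no count in a class set at 3 counts. Clec4a2, an inhibitory lectin gene, was at 92.9 and 104 CPM in Cd209a-positive cells, against 20.0 and 16.9 CPM in Cd209a-zero cells (log2 fold 2.42 ± 0.19 SE, edgeR adjusted p = 1.07e-06). Ly75 (DEC-205), an uptake receptor of type 1 cells, was lower (log2 fold -0.78 ± 0.24 SE, edgeR adjusted p = 0.0361). Of 12 Toll-like and NOD receptor genes, Nlrp3 and Tlr7 were higher and Tlr3 and Tlr12 lower, Nlrp3 not without the Xcr1 and Clec9a cells (edgeR adjusted p = 0.644). Tlr12, which senses profilin of protozoa, was at 0 and 3.68 CPM in Cd209a-positive cells, against 35.3 and 59.6 CPM in Cd209a-zero cells (log2 fold -4.57 ± 0.47 SE, edgeR adjusted p = 1.27e-05).

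Of 13 tested Fc and complement receptor genes, 4 were higher in Cd209a-positive members and none was lower. Fcer1g, the signalling chain shared by several Fc receptors, was at 346 and 317 CPM in Cd209a-positive cells, against 98.8 and 85.1 CPM in Cd209a-zero cells (log2 fold 1.85 ± 0.12 SE, edgeR adjusted p = 1.42e-07). Among costimulatory and checkpoint genes 5 of 11 were higher, with Cd86 at 509 and 486 CPM in Cd209a-positive cells, against 379 and 331 CPM in Cd209a-zero cells (log2 fold 0.49 ± 0.11 SE, edgeR adjusted p = 0.00703), and Btla was lower at 19.5 and 24.7 CPM in Cd209a-positive cells, against 96.7 and 105 CPM in Cd209a-zero cells (log2 fold -2.19 ± 0.19 SE, edgeR adjusted p = 1.26e-06). Among transcription factors of myeloid cells 11 of 32 were higher, and the 2 that were lower were Irf8 and Batf3. Rel, an NF-kappa-B subunit, was at 1121 and 990.4 CPM in Cd209a-positive cells, against 535 and 485 CPM in Cd209a-zero cells (log2 fold 1.05 ± 0.10 SE, edgeR adjusted p = 3.93e-06). Cd86 and Rel did not pass without the Xcr1 and Clec9a cells (log2 folds of 0.26 and 0.33).

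Cst3, the cysteine protease inhibitor cystatin C, was at 2834 and 3430.2 CPM in Cd209a-positive cells, against 9508 and 9789 CPM in Cd209a-zero cells (log2 fold -1.63 ± 0.08 SE, edgeR adjusted p = 6.92e-09). Without the Xcr1 and Clec9a cells its log2 fold was 0.23 (edgeR adjusted p = 0.182). Of the other 11 genes of the lysosomal list, 5 were higher in Cd209a-positive members. Aldh1a2, which makes retinoic acid in gut dendritic cells, was lower, at 21.8 and 27.9 CPM in Cd209a-positive cells, against 45.0 and 66.5 CPM in Cd209a-zero cells (log2 fold -1.16 ± 0.25 SE, edgeR adjusted p = 0.00406), a call lost without the Xcr1 and Clec9a cells (log2 fold -0.26).

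**Figure D4:**
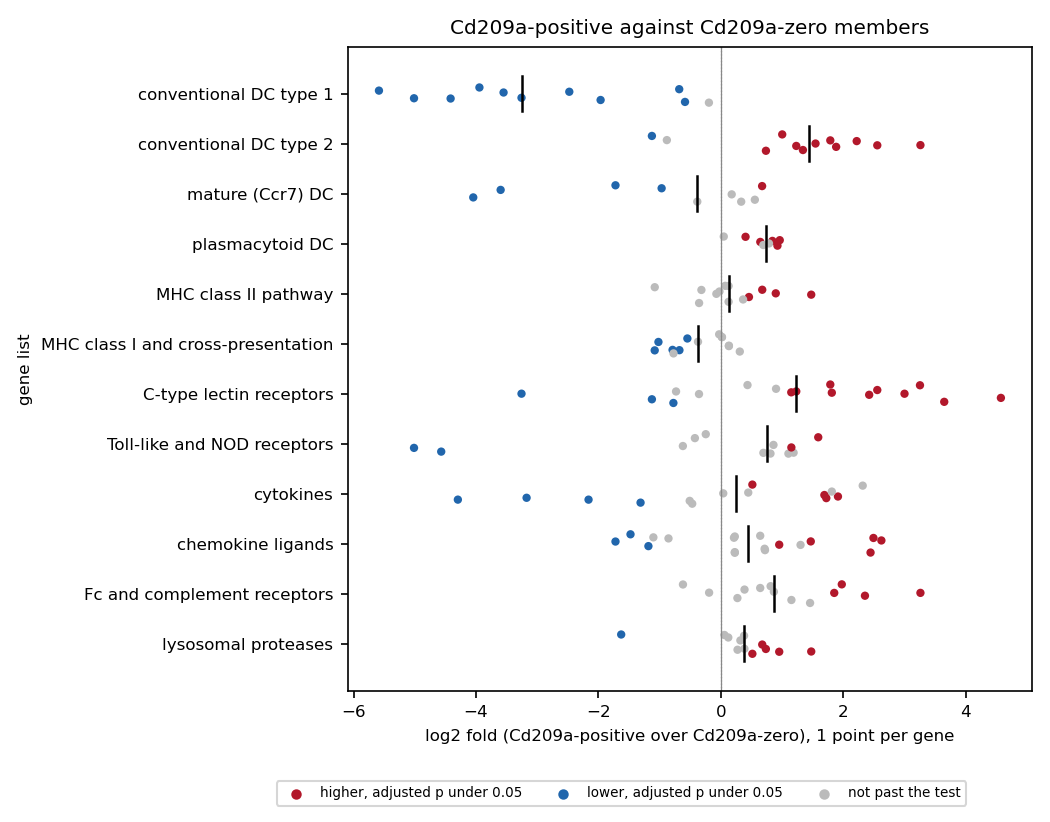
Log2 fold of each tested gene of 12 lists, Cd209a-positive over Cd209a-zero members, 1 point per gene, coloured by the edgeR test; black bars are list medians, the dotted line the median of all genes, and genes without a count in a class are drawn at a bound of 3 counts. The type 1 list lies to the left with a median of -3.26 and the type 2 list to the right with 1.44.

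Genes linked to dissociation stress were higher in Cd209a-positive members in 11 of 20 cases, Fosb and Dusp1 among them with log2 folds of 1.09 and 0.90, and lower in 2, Hspa8 and Hspe1; Hspa8 did not pass without the Xcr1 and Clec9a cells (edgeR adjusted p = 0.495). Their summed level was 10088.6 and 9345.7 CPM in Cd209a-positive cells, against 7955.6 and 8620.3 CPM in Cd209a-zero cells, before scaling. Their part in the other differences was not tested.

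Markers of other cell types differed in level. The monocyte marker sum was 5237 and 4658 CPM in Cd209a-positive cells and 6660 and 4923 CPM in Cd209a-zero cells, against 1211 and 1148 CPM in barcodes with 1 to 50 UMIs. The sum of 14 macrophage markers was 419 and 433 CPM in Cd209a-positive cells and 358 and 311 CPM in Cd209a-zero cells. It was 13468 and 12608 CPM in C1q-high cells, and 773 and 708 CPM in barcodes with 1 to 50 UMIs. Of these markers 3 of 12 tested, Adgre1, Mrc1 and Apoe, were higher in Cd209a-positive cells, and Trem2 was at 0. Before TMM scaling, Apoe was at 78.6 and 53.4 CPM in Cd209a-positive cells, below its 390 and 351 CPM in near-empty barcodes. Mrc1 was at 4.56 and 0.523 CPM, against 10.9 and 9.51 CPM in near-empty barcodes. Adgre1 stood above its near-empty level of 7.86 and 6.92 CPM. A level in near-empty barcodes is a share of their own UMIs and not the amount such RNA adds to a member. Standing below it does not give the source of a transcript, and the part of such RNA in a member was not estimated. The sum of 5 B cell markers was 3.99 and 7.85 CPM in Cd209a-positive cells, against 4.02 and 6.09 CPM in Cd209a-zero cells, with Pax5 at 0 and none of the 5 tested passing. The plasma cell sum was 3128 and 3019 CPM in Cd209a-positive cells, against 2942 and 2755 CPM in Cd209a-zero cells, and 184173 and 185464 CPM in barcodes with 1 to 50 UMIs, with none of 6 passing.

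Fibroblast markers passed in none of 6 genes and T cell markers in none of 2. Of the endothelial markers, Pecam1 and Plvap were both higher in Cd209a-positive cells. Pecam1 was at 72.3 and 73.6 CPM in Cd209a-positive cells, against 24.6 and 19.9 CPM in Cd209a-zero cells. In C1q-high cells it was at 139 and 122 CPM before TMM scaling, and in near-empty barcodes at 49.4 and 57.5 CPM. Plvap was at 5.70 and 8.89 CPM in Cd209a-positive cells before TMM scaling, below its 38.9 and 34.6 CPM in near-empty barcodes. The sum of 7 was 92.3 and 93.6 CPM in Cd209a-positive cells, against 26.6 and 27.9 CPM in Cd209a-zero cells. Near-empty barcodes held 236 and 246 CPM of that sum. Epcam was higher (log2 fold 0.86 ± 0.15 SE, edgeR adjusted p = 0.000821), in an epithelial sum of 217 and 245 CPM in Cd209a-positive cells, against 231 and 142 CPM in Cd209a-zero cells, and 34.0 and 43.2 CPM in near-empty barcodes. Vil1, Krt18 and Olfm4 were at 0 in both classes. The Epcam log2 fold was 0.01 without the Xcr1 and Clec9a cells (edgeR adjusted p = 0.981). Acta2 and Des were lower and stood below their level in near-empty barcodes, and Acta2 had a log2 fold of 0.63 without the Ccr7 cells and -0.28 without predicted doublets (edgeR adjusted p = 0.480 and 0.734). A level below that of near-empty barcodes does not give the source of a transcript. The part of any of these cells in the differences was not tested.

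Plasmacytoid markers were higher in Cd209a-positive members in 5 of 8 genes, among them Tcf4 (log2 fold 0.84 ± 0.13 SE, edgeR adjusted p = 0.000459) and Klk1 (log2 fold 0.92 ± 0.22 SE, edgeR adjusted p = 0.00985). Tcf4 had a log2 fold of 0.08 and Klk1 of -0.09 without the Xcr1 and Clec9a cells. Of 8 monocyte markers 3 were higher, and Lyz2 (lysozyme), whose paralog Lyz1 may share reads, was lower at 2921 and 2232 CPM in Cd209a-positive cells, against 5028 and 3314 CPM in Cd209a-zero cells (log2 fold -0.69 ± 0.14 SE, edgeR adjusted p = 0.00372). Without the Ccr7 cells Lyz2 had a log2 fold of 0.0036. Ly6c2 and Plac8, called at adjusted p = 0.0105 and 0.0487 by edgeR, had log2 folds of -0.04 and -0.17 without the Xcr1 and Clec9a cells. In the cell cycle list Mki67 was higher and Birc5 lower of 12 genes, and of 9 interferon-induced genes Isg15 and Gbp2 were higher and Ifi205 lower. Of these, Mki67, Birc5, Isg15 and Gbp2 did not pass without the Xcr1 and Clec9a cells (edgeR adjusted p = 0.0799, 0.722, 0.0625 and 0.352), nor did Apoe among the macrophage markers (0.0906).

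Where the named genes sat among the patterns of member is a description, in CPM without scaling, with no test. Of 34 named genes lower in Cd209a-positive members, 21 were highest in the Xcr1 and Clec9a cells in both libraries, 8 in the Ccr7 cells and 2 in the Siglech cells. Of 50 higher ones, 18 were highest in the cells with none of the patterns, 9 in the Siglech cells and 5 in the Ccr7 cells. The 34 include Xcr1, Clec9a and Ccr7, which define the patterns, so their place was fixed in advance. The Xcr1 and Clec9a cells were 45.8% and 51.5% of Cd209a-zero members, against 2.16% and 5.81% of Cd209a-positive members. Genes highest in them therefore tend to be lower in Cd209a-positive members. Type 1 genes at 50 CPM or more were also named by list. The count of 21 thus follows in part from how the 34 were chosen. The same holds for the 18 and the cells with no pattern, the larger part of Cd209a-positive members. How often each pattern is highest over all genes was not counted, so no conclusion is drawn from these counts. Cst3 was at 15256 and 14225 CPM in the Xcr1 and Clec9a cells, against 3048 and 2951 CPM in the cells with no pattern. Ppt1 was at 1029 and 944 CPM in the Xcr1 and Clec9a cells, against 58.7 and 51.3 CPM in cells with no pattern. H2-DMb1 was at 891 and 904 CPM in the Xcr1 and Clec9a cells, against 559 and 475 CPM in cells with no pattern. H2-DMb2 ran the other way, at 63.5 and 67.7 CPM in the Xcr1 and Clec9a cells, against 215 and 235 CPM in cells with no pattern.

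Il12b and Il23a, which encode partner subunits of interleukin 23, were highest in different cells. Il12b was at 58.0 and 68.3 CPM in the Xcr1 and Clec9a cells and at 0.805 and 8.63 CPM in the Ccr7 cells. Il23a was at 0 and 9.47 CPM in the Xcr1 and Clec9a cells and at 126 and 102 CPM in the Ccr7 cells. Among Ccr7 cells, Il23a stood at 5.26 and 46.6 CPM in Cd209a-positive cells, against 229 and 146 CPM in Cd209a-zero cells. Il22ra2 followed the same order there, at 251 and 330.4 CPM in Cd209a-positive cells, against 1542 and 974 CPM in Cd209a-zero cells. Il4i1 followed it too, and Fscn1 was at 5.26 and 0 CPM in Cd209a-positive cells, against 44.6 and 109 CPM in Cd209a-zero cells.

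Counted after the Xcr1 and Clec9a and Ccr7 cells were set aside, the Siglech cells were 9 and 11; in all, 14 and 22 members had 2 or more Siglech UMIs. Of the 3 and 9 Cd209a-positive cells counted by Xcr1 and Clec9a, 3 and 4 also had 2 or more Siglech UMIs (20 to 37 in library 1 and 12 to 18 in library 2). Of the 54 and 68 Cd209a-zero cells counted by Xcr1 and Clec9a, 1 and 4 did. Irf8 was at 1197 and 1449 CPM in the 9 and 11 Siglech cells, against 609 and 759 CPM in the Xcr1 and Clec9a cells. Tcf4, the plasmacytoid lineage factor, was at 1545 and 1482 CPM, against 129 and 153 CPM in cells with no pattern. Cd74 was at 9268 and 7829 CPM there, against 21397 and 20647 CPM in cells with no pattern. Plet1 was at 0 and 11.0 CPM in the Siglech cells, 64.4 and 33.8 CPM in the Xcr1 and Clec9a cells, 599 and 638 CPM in the Ccr7 cells and 908 and 923 CPM in the rest.

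Set against C1q-high cells, members were higher in 1404 of 6652 tested genes (21.1%) and lower in 1535 (23.1%), 44.2% in either direction, by edgeR at an adjusted p under 0.05. There were 1690 calls among 2999 tested genes when all cells were thinned to 2000 UMIs. By the rule's own genes, C1qa was at 2.41 and 2.13 CPM in members, against 3436 and 2613 CPM in C1q-high cells, while Itgax was at 226 and 208 CPM in members, against 237 and 286 CPM in C1q-high cells; Flt3 was at 128 and 123 CPM in members, against 10.5 and 32.2 CPM in C1q-high cells. H2-Ab1 was at 10400.0 and 9687 CPM in members, against 9209 and 8754 CPM in C1q-high cells.

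All 11 tested macrophage markers were lower in members, at a median log2 fold of -6.89. Csf1r, the receptor for the macrophage growth factor, was at 24.9 and 25.7 CPM in members, against 1202 and 985 CPM in C1q-high cells (log2 fold -5.42 ± 0.16 SE, edgeR adjusted p = 3.46e-07), and Apoe, a lipid carrier, at 69.4 and 39.7 CPM in members, against 6906 and 6184 CPM in C1q-high cells (log2 fold -6.95 ± 0.18 SE, edgeR adjusted p = 4.31e-08). No UMI of Gbp2b, Ccl24, C6 or Ccl8 was found in a member. With 3 counts over all members as the floor, they were at least 996-fold, 551-fold, 333-fold and 213-fold lower in members. The metalloproteinase genes Mmp9 and Mmp13 were at 0 and 0.236 CPM in members, against 667 and 506 CPM in C1q-high cells, and at 0 and 1.18 CPM in members, against 1051 and 896 CPM in C1q-high cells.

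Of 18 chemokine ligands 16 were lower in members, at a median log2 fold of -4.71, against 0.025 over all tested genes. Ccl3 was at 8.30 and 2.60 CPM in members, against 803 and 580.1 CPM in C1q-high cells (log2 fold -7.03 ± 0.29 SE, edgeR adjusted p = 4.94e-07). The 2 that were higher were Ccl22, at 66.7 and 133 CPM in members, against 25.2 and 14.1 CPM in C1q-high cells (log2 fold 2.32 ± 0.38 SE, edgeR adjusted p = 0.00163), and Ccl17, at 23.0 and 67.3 CPM in members, against 2.1 and 6.04 CPM in C1q-high cells (log2 fold 3.45 ± 0.45 SE, edgeR adjusted p = 0.00051). Il10, the anti-inflammatory cytokine of gut macrophages, was at 0.804 and 0.472 CPM in members, against 577 and 193 CPM in C1q-high cells (log2 fold -9.04 ± 0.25 SE, edgeR adjusted p = 6.01e-08), and Tnf at 1.07 and 1.89 CPM in members, against 273 and 143 CPM in C1q-high cells (log2 fold -7.00 ± 0.35 SE, edgeR adjusted p = 1.18e-06). The dissociation stress genes were lower in members in 15 of 20 cases, with sums of 8955 and 8949.8 CPM in members, against 22174 and 22645.6 CPM in C1q-high cells; their part in the other differences was not tested.

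Antibody and complement receptors were lower in members in 10 of 13 genes, and lysosomal genes in 11 of 12. Lgmn was at 111 and 123 CPM in members, against 3193 and 2441 CPM in C1q-high cells (log2 fold -4.58 ± 0.15 SE, edgeR adjusted p = 1.64e-07). Cst3 was the exception, at 6301 and 6893 CPM in members, against 541 and 578 CPM in C1q-high cells (log2 fold 3.56 ± 0.09 SE, edgeR adjusted p = 4.31e-08). Of 13 class II list genes, 4 were higher and 5 lower, at a median log2 fold of 0.14. H2-Oa was higher at 173 and 164 CPM in members, against 25.2 and 12.1 CPM in C1q-high cells (log2 fold 3.19 ± 0.27 SE, edgeR adjusted p = 2.32e-05), and Ciita, the class II transactivator, lower at 32.9 and 38.0 CPM in members, against 83.9 and 119 CPM in C1q-high cells (log2 fold -1.51 ± 0.20 SE, edgeR adjusted p = 0.00031). Actin and migration genes were higher in 9 of 11 cases, with Lsp1 at 917 and 930.2 CPM in members, against 46.2 and 143 CPM in C1q-high cells (log2 fold 3.32 ± 0.28 SE, edgeR adjusted p = 2.2e-05).

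**Figure D5:**
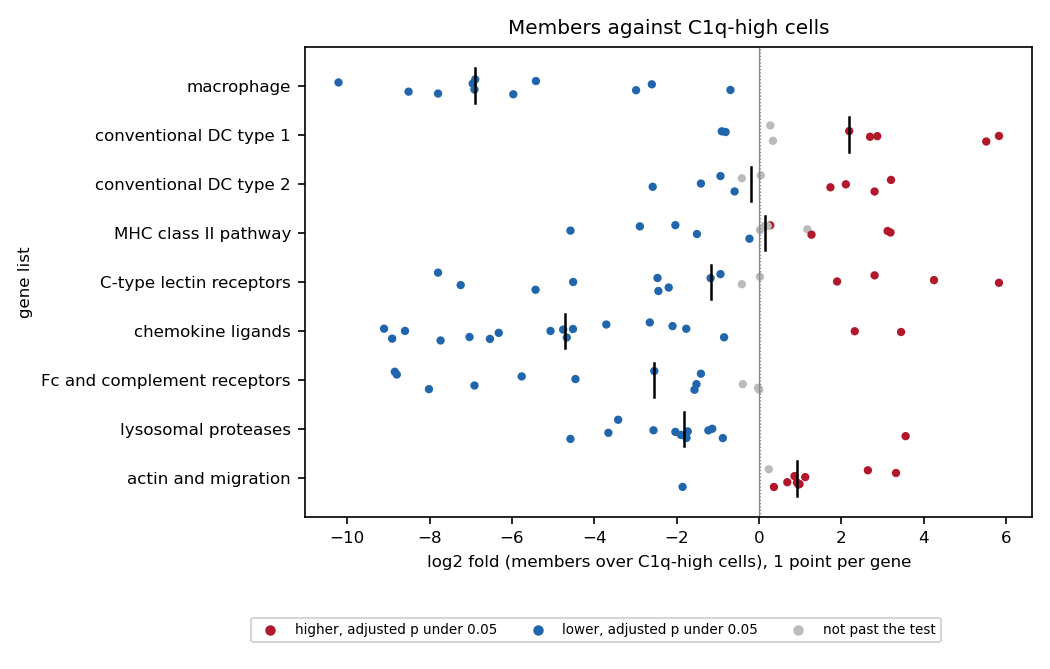
Log2 fold of each tested gene of 9 lists, members over C1q-high cells, 1 point per gene, coloured by the edgeR test; black bars are list medians, the dotted line the median of all genes, and genes without a count in a class are drawn at a bound of 3 counts. The macrophage list has its median at -6.89 and the chemokine ligands at -4.71, and only Cst3 of the lysosomal list lies to the right.

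Several dendritic genes that the rule did not use were higher in members. Plet1 was at 545 and 509.8 CPM in members, against 98.6 and 147 CPM in C1q-high cells (log2 fold 2.11 ± 0.22 SE, edgeR adjusted p = 8.89e-05), Kit, the receptor for stem cell factor, at 108 and 92.1 CPM in members, against 6.29 and 16.1 CPM in C1q-high cells (log2 fold 3.13 ± 0.36 SE, edgeR adjusted p = 0.000148), and Zbtb46, the transcription factor of conventional dendritic cells, at 21.4 and 22.4 CPM in members, against 2.1 and 8.06 CPM in C1q-high cells (log2 fold 2.08 ± 0.58 SE, edgeR adjusted p = 0.0168). Xcr1 was at 91.9 and 103 CPM in members, against 2.1 and 2.01 CPM in C1q-high cells (log2 fold 5.52 ± 0.43 SE, edgeR adjusted p = 2.94e-05). Siglech had no UMI in a C1q-high cell and was at least 27.1-fold higher in members. Ccr7 was at 485 and 467 CPM in members, against 143 and 171 CPM in C1q-high cells (log2 fold 1.60 ± 0.15 SE, edgeR adjusted p = 3.87e-05). Some dendritic list genes went the other way: Sirpa was at 67.8 and 58.3 CPM in members, against 373 and 381 CPM in C1q-high cells (log2 fold -2.58 ± 0.18 SE, edgeR adjusted p = 6.03e-06), Itgam at 52.2 and 43.7 CPM in members, against 134 and 121 CPM in C1q-high cells (log2 fold -1.41 ± 0.23 SE, edgeR adjusted p = 0.00115), Cadm1 at 60.5 and 73.5 CPM in members, against 130.1 and 121 CPM in C1q-high cells (log2 fold -0.91 ± 0.19 SE, edgeR adjusted p = 0.00539) and Irf8 at 238 and 319 CPM in members, against 549.6 and 427 CPM in C1q-high cells (log2 fold -0.81 ± 0.18 SE, edgeR adjusted p = 0.00626).

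Among the other named rises over C1q-high cells, Serpinb6b, a protease inhibitor gene, was at 947 and 956 CPM in members, against 27.3 and 64.5 CPM in C1q-high cells (log2 fold 4.40 ± 0.31 SE, edgeR adjusted p = 7.62e-06). Itgb7, the integrin chain of gut homing, was at 141 and 122 CPM in members, against 10.5 and 6.04 CPM in C1q-high cells (log2 fold 3.98 ± 0.38 SE, edgeR adjusted p = 4.88e-05). Areg, a ligand of the EGF receptor, was at 99.6 and 83.6 CPM in members, against 6.29 and 8.06 CPM in C1q-high cells (log2 fold 3.65 ± 0.45 SE, edgeR adjusted p = 0.000235). Epcam was at 130.5 and 108 CPM in members, against 18.9 and 32.2 CPM in C1q-high cells (log2 fold 2.21 ± 0.26 SE, edgeR adjusted p = 0.000189).

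Against B cells, 1610 of 6651 tested genes were higher in members (24.2%) and 1283 lower (19.3%), 43.5% in either direction, by edgeR at an adjusted p under 0.05. The B cell sums also held plasma cell transcripts, with a plasma cell marker sum of 268012 and 330031 CPM, so their CPM are shares of libraries rich in antibody RNA. H2-Eb1 was at 7999.8 and 7596 CPM in members, against 1515 and 1389 CPM in B cells (log2 fold 2.42 ± 0.08 SE, edgeR adjusted p = 9.54e-08). Csf2rb, a subunit of the GM-CSF receptor, was at 1110.3 and 1144 CPM in members, against 7.38 and 8.07 CPM in B cells (log2 fold 7.18 ± 0.22 SE, edgeR adjusted p = 8.62e-08). Il1b was at 3283 and 2565 CPM in members, against 11.1 and 16.1 CPM in B cells (log2 fold 7.75 ± 0.16 SE, edgeR adjusted p = 2.06e-08). Cd300a had no UMI in a B cell and was at least 79.3-fold higher in members, and Pax5 had none in a member and was at least 366-fold lower.

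In all, 270 of 6652 genes (4.06%) were higher in members than in both other classes with log2 folds over 1. Of these, 64 were also higher in Cd209a-positive than in Cd209a-zero members, 74 were lower and 132 did not pass. Over all 8716 genes tested in the Cd209a comparison, 8.51% were higher and 6.39% lower. The 270 were picked for a higher level in members, so they are not a sample of all tested genes. Cst3 gave the most UMIs among them, at 6301 and 6893 CPM in members, against 541 and 578 CPM in C1q-high cells and 345 and 385 CPM in B cells. Serpinb6b was at 947 and 956 CPM in members, against 27.3 and 64.5 CPM in C1q-high cells and 11.1 and 46.4 CPM in B cells.

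No cell of the sorted PDGFRA reporter library met the rule. It had 3890 kept cells, which allows a share of up to 0.0771%, and its highest H2-Ab1 count was 23 UMIs.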

How the data were processed

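The authors deposited UMI counts per gene and barcode from Cell Ranger 3.0.2 for whole mesenchyme and 2.1.1 for the sorted library, aligned to mm10, per the submitters' processing notes. Filtered matrices gave the cells and unfiltered ones the near-empty barcodes (1 to 50 UMIs). The deposited bulk table of read counts per gene symbol was described only; its counting program is not given in the sources used here. Cells needed 500 detected genes and a mitochondrial share below 10%, which kept 6226 of 6886 and 6040 of 6676 barcodes, with 54201520 and 53570429 UMIs. Scrublet in scanpy 1.11.5 was run on all barcodes (120 and 102 predicted doublets); these were kept in the main analysis and left out in an alternative. Counts were summed per library and class and tested with edgeR 4.0.16 (R 4.3.3; filterByExpr, TMM, glmQLFit and glmQLFTest, library as block, Benjamini-Hochberg under 0.05), with 3 residual degrees of freedom for the Cd209a comparison and 2 for the others. The C1q-high and B cell sums were part of every fit, also that of the Cd209a comparison. The spread of each gene was drawn toward that of other genes, with 12.4 prior degrees of freedom for the Cd209a comparison and 6.86 for the others. Library is the block because every class was taken from both libraries, so same-numbered sums share a library by construction. The test was checked on simulated counts. Alternatives included DESeq2 1.42.0, and cells thinned to 2000 UMIs; shares were thinned to 5000 UMIs, with shallower cells left out (136 of 139 and 144 of 155 Cd209a-positive and 115 of 118 and 130 of 132 Cd209a-zero members remained).

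The members, the 36 gene lists and the tests were chosen with earlier results of these data known. Named genes were up to 10 of the largest rises and falls per comparison with 50 CPM or more in the higher class and no overlap between libraries, up to 2 genes per list and direction with the smallest p and 20 CPM or more, all genes of the dendritic, monocyte and class II lists with 50 CPM or more in the Cd209a comparison, the rule genes and Plet1; others named to complete a count, and those in the paragraphs on patterns of member, were chosen after their values were seen. Promoters of 292 of 391 list genes were matched by symbol in RefSeq.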

Additional observations from a re-analysis of the deposited data

Results flagged for a closer look

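Transcripts of the genes that divide the members were also found in bulk libraries that the comparisons do not use. In blood endothelium, Cd209a had 1105 and 453 counts, Xcr1 228 and 241, and Clec9a 711 and 366. In lymphatic endothelium, Cd209a had 434 and 1091 counts, Xcr1 105 and 122, and Clec9a 32 and 72. All 12 values are above 3 counts, the limit used for a gene with no count. The PDGFRAlo libraries had 48 and 169 counts of Cd209a and the telocyte libraries 11 and 9. As a share of all counts, Cd209a was at 50.8 and 73.5 CPM in lymphatic endothelium, 20.0 and 18.4 CPM in blood endothelium, 3.28 and 7.92 CPM in PDGFRAlo cells and 0.960 and 0.647 CPM in telocytes. The macrophage transcript C1qa was in the same libraries, at 1109 and 1635 CPM in lymphatic and 383 and 395 CPM in blood endothelium. It was at 79.6 and 29.7 CPM in PDGFRAlo cells and 5.33 and 2.23 CPM in telocytes. Cd74 was at 14445 and 21073 CPM in lymphatic and 3765 and 5169 CPM in blood endothelium. In bulk samples fewer cells of a type and less RNA per cell cannot be told apart, and the source of these counts was not tested.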

How the results depend on the processing

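The Cd209a comparison called 1299 genes; this became 493 with DESeq2, 2167 with only the 2 classes in the fit, 323 with cells thinned to 2000 UMIs (3925 genes tested) and 491 without members with 2 or more Xcr1 and Clec9a UMIs, of which 306 were shared with the 1299. Against C1q-high cells 2939 calls became 1781 with DESeq2 and 1690 thinned, and against B cells 2893 became 1779 and 1442. Dropping the replicate block gave 1325, 3143 and 3110 calls. The share of higher calls against B cells was 67.8% with no low-count filter and 55.7% with it. Members were 5.06% and 5.65% of kept cells when cells had under 5% mitochondrial UMIs.

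Of 3724 values of named genes under alternatives, 3259 kept their direction and side of the threshold, 131 lost the call, 18 gained it, 297 of single-library values moved by more than 1 SE and 19 reversed. The removals of Xcr1 and Clec9a, Ccr7 or Siglech cells were chosen after seeing the data. Without the Xcr1 and Clec9a cells the log2 folds of Cd209a-positive over Cd209a-zero members were 0.40 for Naaa, -0.26 for Sirpa, -0.094 for Klk1, -0.045 for Ly6c2, -0.17 for Plac8, -0.13 for Il7r, -0.29 for H2-DMb2, 0.84 for H2-DMb1 and 0.23 for Cst3. Without the Ccr7 cells they were 2.39 for Ccl22, 0.78 for Ccr7, 0.0036 for Lyz2, 0.63 for Acta2 and 2.99 for Ccl17. Against C1q-high cells Gzma was at -0.0534 without replicate 1 and 2.22 without replicate 2, and Tagln at -0.11 without predicted doublets. Against B cells Rgs5 was at 3.65 without replicate 1 and -5.12 without replicate 2, and thinned cells gave 1.82 for Vsir and 0.48 for Mki67. Beyond the fewer cells or genes in a setting, the cause was not tested. A single library leaves no residual degrees of freedom, so counts without a replicate have no value. UMI depth limits genes near 1 UMI per class, and an absence there is not shown.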
